A study of Mus musculus with 2 samples.

Results

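The imprinted domains around Gnas, H19 and Igf2, Dlk1 and Meg3, Snrpn, and Peg3 were examined for occupancy by CtBP2 in MIN6 cells. The 7 genes were taken with 5 windows of mouse build mm9: chr2:174090001-174190000 for Gnas, chr7:149750001-149854000 for H19 and Igf2, chr12:110670001-110830000 for Dlk1 and Meg3, chr7:6630001-6710000 for Peg3 and chr7:67100001-67180000 for Snrpn. Together they spanned 524 kb of the 2560 Mb analysed and held 23 of the 29388 regions called in the genome, where 1.00% of the windows tested were called. The set was chosen by the ChIP and input read counts of these same libraries, as Gnas was known to hold 1 of the widest regions. All ChIP against input values of the windows are therefore a description, with no test.

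MIN6 is a mouse insulinoma line, derived from a transgenic mouse with SV40 large T antigen in its beta cells, and was kept in its regular culture. The series holds 1 chromatin immunoprecipitation (ChIP) library made with anti-CtBP2 and 1 input library of sheared MIN6 chromatin without antibody. Formaldehyde fixation, sonication and the same library kit applied to both. Each group is 1 library, so no value has a replicate check. A control IgG precipitation is also mentioned in the protocol and was not analysed here. Reads on DNA give no expression, so the labelled cell type could not be checked against its markers.

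The ChIP library held 34890624 deposited reads and the input library 20896067, of which 8474671 and 12471942 distinct reads remained after 1 read per chromosome, 5 prime end and strand was kept. Outside called regions the genome carried 1.20 ChIP and 4.41 input distinct reads per kb. Because ChIP reads were gathered in few places, library totals gave 0.679 ChIP reads per input read, against 0.272 outside regions, which is 0.401 of that total ratio. A ChIP over scaled input value of 1 below means the ratio of the library totals, and values are to be read against 0.401 where no region lies. All intervals are 95% intervals for counting error only, since amplified reads are not independent molecules.

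In imprinting, a gene is expressed from 1 parental allele only, under the control of CpG-rich sequence whose DNA methylation is set in the germ line. CtBP2 is a transcriptional co-repressor that senses NADH and reaches DNA through partner proteins with a PxDLS-type motif, among them the zinc finger factors Zeb1 and Zeb2. Gnas encodes the stimulatory G protein alpha subunit, which couples receptors such as that for GLP-1 to cyclic AMP in beta cells, and its locus has several promoters, some active on the maternal and some on the paternal allele. Igf2 is a paternally expressed growth factor next to Ins2, and H19 is a maternally expressed non-coding RNA that shares its control region. Dlk1 encodes a paternally expressed membrane protein of the Notch ligand type, Meg3 a maternally expressed non-coding RNA, Snrpn a paternally expressed spliceosomal protein, and Peg3 a paternally expressed zinc finger protein. The deposited reads carry no bases, so parental alleles could not be told apart.

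The sequence before the starts of the members differed widely in CpG content. RefSeq promoters matched 6 of the 7 members with 16 starts, and H19 is named only. The 250 bases before 1 start of each matched member are given here with every CG in capitals, to set CpG-rich starts beside CpG-poor ones. The start with most CG was taken, except for Snrpn, where the start shared with Snurf was taken.
Gnas (chr2:174329756-174330005, GRCm38.p6, plus strand): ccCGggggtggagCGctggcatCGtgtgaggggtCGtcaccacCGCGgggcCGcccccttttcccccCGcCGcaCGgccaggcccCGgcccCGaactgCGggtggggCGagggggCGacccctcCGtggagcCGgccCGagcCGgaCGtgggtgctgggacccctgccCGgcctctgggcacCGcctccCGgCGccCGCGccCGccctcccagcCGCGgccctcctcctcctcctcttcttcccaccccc
Igf2 (chr7:142658805-142659054, GRCm38.p6, minus strand): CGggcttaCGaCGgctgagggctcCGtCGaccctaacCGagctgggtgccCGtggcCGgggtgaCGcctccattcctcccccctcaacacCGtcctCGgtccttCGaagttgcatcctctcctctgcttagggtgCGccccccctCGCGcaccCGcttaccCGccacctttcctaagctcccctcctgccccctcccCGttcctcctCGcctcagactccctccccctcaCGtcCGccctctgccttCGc
Meg3 (chr12:109540746-109540995, GRCm38.p6, plus strand): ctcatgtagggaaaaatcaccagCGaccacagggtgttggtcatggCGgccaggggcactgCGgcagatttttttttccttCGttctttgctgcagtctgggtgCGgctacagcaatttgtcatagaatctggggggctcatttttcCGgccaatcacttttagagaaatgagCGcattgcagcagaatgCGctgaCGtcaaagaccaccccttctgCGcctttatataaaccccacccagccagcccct
Dlk1 (chr12:109452573-109452822, GRCm38.p6, plus strand): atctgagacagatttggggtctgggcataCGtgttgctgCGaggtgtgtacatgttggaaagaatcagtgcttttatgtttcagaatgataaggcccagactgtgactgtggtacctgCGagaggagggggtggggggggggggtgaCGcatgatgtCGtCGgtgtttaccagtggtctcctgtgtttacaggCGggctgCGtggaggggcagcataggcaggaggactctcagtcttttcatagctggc
Peg3 (chr7:6730420-6730669, GRCm38.p6, minus strand): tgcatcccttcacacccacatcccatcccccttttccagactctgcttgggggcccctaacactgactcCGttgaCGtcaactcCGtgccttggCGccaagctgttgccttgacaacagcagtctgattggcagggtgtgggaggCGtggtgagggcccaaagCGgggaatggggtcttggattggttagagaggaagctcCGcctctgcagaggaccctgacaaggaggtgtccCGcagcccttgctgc
Snrpn (chr7:60005200-60005449, GRCm38.p6, minus strand): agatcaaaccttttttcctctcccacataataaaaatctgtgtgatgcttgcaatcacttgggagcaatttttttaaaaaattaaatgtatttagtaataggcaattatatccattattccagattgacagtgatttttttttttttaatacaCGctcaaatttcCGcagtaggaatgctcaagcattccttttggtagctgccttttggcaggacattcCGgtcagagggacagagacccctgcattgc
The Gnas start held 29 CG, a number reached by 6.78% of the 32851 RefSeq promoters, and the Igf2 start held 22 (14.8%). Meg3 followed with 10 CG (37.8%), Dlk1 and Peg3 had 8 each (43.0%), and Snrpn had 3 (71.0%), against a median of 6 over all promoters. The other starts held 14, 21 and 22 CG at Gnas, 1, 6 and 10 at Igf2, 0 at Meg3 and 2, 3 and 4 at Snrpn. No other start was matched for Dlk1 and Peg3. As the richest start was picked where there were several, except at Snrpn, the order above depends on that choice. GC content was 80% at the Gnas start and 36.8% at the Snrpn start, against a median of 52.4%. The motif CACCTG, searched on both strands (CAGGTG on the other) as the core bound by Zeb factors, was in none of these 6 sequences. It was in 2 of the 16 starts, another Gnas start and another Snrpn start, against 17.2% of all promoters, and a match or its absence in these bases says nothing of binding. These sequences are on GRCm38.p6 and the reads on mm9. Positions were not converted between the builds, so no region below is tied to a start.

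Relative to input, ChIP reads were most abundant in the Gnas and H19/Igf2 windows, intermediate in Peg3 and Dlk1/Meg3 and fewest in Snrpn. The Gnas window held 2410 distinct ChIP reads (interval 2315 to 2508) and 952 input reads (893 to 1014), or 24.1 and 9.52 per kb, a ChIP over scaled input of 3.73 (3.46 to 4.02). In the H19/Igf2 window the counts were 1327 ChIP and 598 input reads, and the ratio was 3.27 (2.96 to 3.60). These ratios lie close to each other with overlapping intervals. The Peg3 window held 473 ChIP and 515 input reads, a ratio of 1.35 (1.19 to 1.53), and the Dlk1/Meg3 window 754 ChIP and 852 input reads, a ratio of 1.30 (1.18 to 1.44), so these neighbours also overlap. Snrpn had 82 ChIP reads (65.2 to 102) and 358 input reads (322 to 397), a ratio of 0.337 (0.262 to 0.430), whose interval holds the 0.401 of the genome outside regions.

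Set against genome tiles of the same length, 99.45% of 25669 tiles had fewer ChIP reads than Gnas and 95.75% of 24690 had fewer than H19/Igf2. The share was 83.45% for Peg3, 78.1% for Dlk1/Meg3 and 24.5% for Snrpn. For input reads the shares were 98.1% for Gnas, 75.7% for H19/Igf2, 84.1% for Peg3, 68.6% for Dlk1/Meg3 and 48.9% for Snrpn. Raised input thus accompanied the Gnas value, and its part in it was not tested. By the ChIP to input ratio, 99.3% of the tiles lay below Gnas and 98.4% below H19/Igf2. The share was 81.5% for Peg3, 76.5% for Dlk1/Meg3 and 14.7% for Snrpn.

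**Figure D1:**
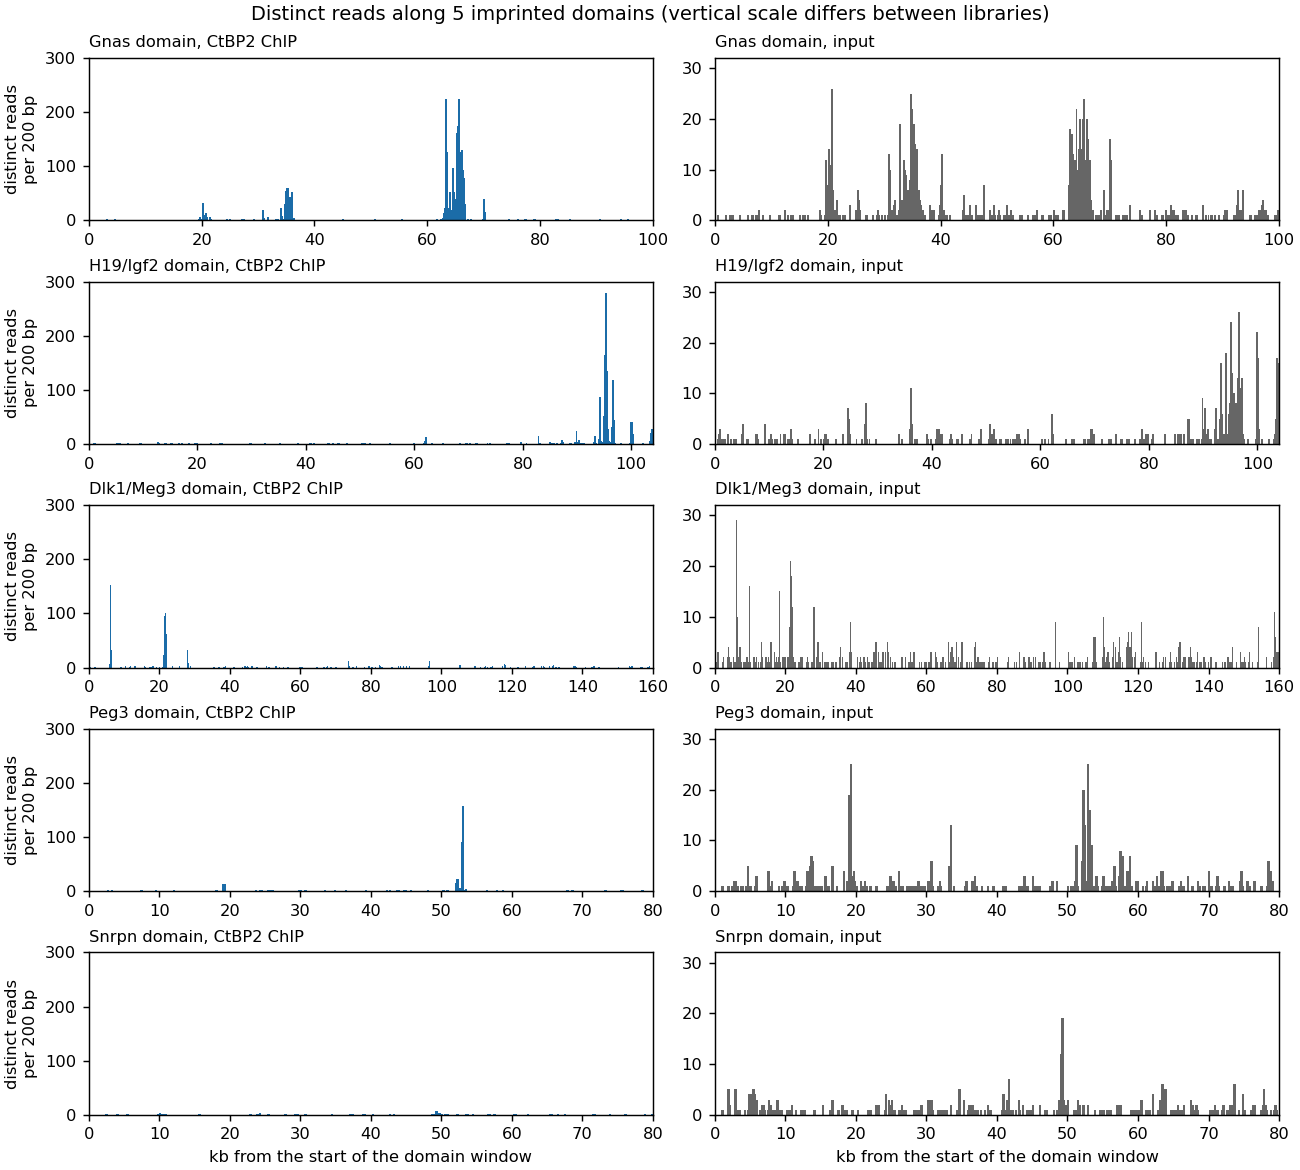
Distinct reads in 200 bp steps along the 5 domain windows, with distance from the start of each window in kb on the horizontal axis, CtBP2 ChIP on the left and input on the right on scales that differ. ChIP reads stand in a few narrow places, up to 279 in a step of the H19/Igf2 window, and the highest step of the Snrpn window holds 7.

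**Figure D2:**
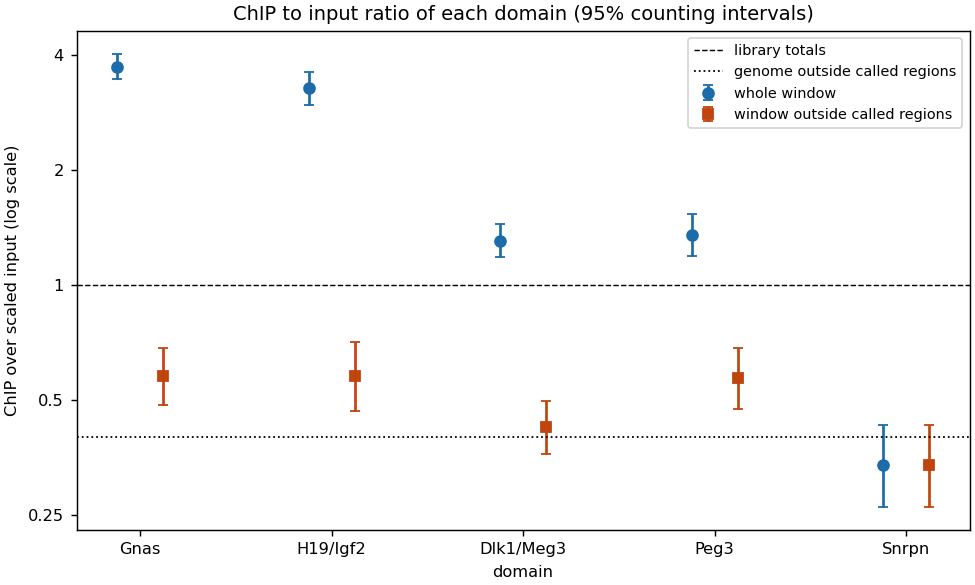
ChIP over scaled input (log scale) of each domain for the whole window and for the window outside called regions, with 95% counting intervals. Whole-window values run from 3.73 in Gnas to 0.337 in Snrpn, while those outside regions lie between 0.337 and 0.576, near the dotted line of the genome at 0.401.

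Regions were stretches where the ChIP count in 200 bp windows was at least 3 times the expected count at an adjusted p of at most 0.01 (Poisson test over all windows of the genome with Benjamini-Hochberg adjustment). The expected count was the largest of the genome mean and scaled input over 1, 5 and 10 kb, not the input of the 200 bp window itself. A region can thus lie below 3 times its own scaled input, as at 6649051 to 6649250 in Peg3 with a ratio of 1.24. Gnas had 6 regions, H19/Igf2 9, Dlk1/Meg3 5, Peg3 3 and Snrpn 0, a total of 23. In the whole genome 268662 of the 26834433 windows tested were called. Counted as separate 200 bp steps with a read, 78 of 1396 steps of the domains lay in a region (5.59%), against a background of 1.37%. By domain the share was 11.3% in Gnas, 11.2% in H19/Igf2, 3.42% in Dlk1/Meg3, 2.02% in Peg3 and 0% in Snrpn. As the windows were chosen with these reads known, nothing is read from the excess.

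Over the whole genome, regions held 64.0% of the ChIP and 10.2% of the input reads. In Gnas the regions covered 6.85% of the window and held 92.1% of its ChIP and 49.0% of its input reads. The shares of ChIP and input reads were 90.4% and 45.3% in H19/Igf2, 73.1% and 17.1% in Dlk1/Meg3, and 66.0% and 19.2% in Peg3, so that the ChIP share of Peg3 was near that of the genome. Outside regions ChIP over scaled input was 0.575 (0.484 to 0.682) in Gnas, 0.576 (0.466 to 0.709) in H19/Igf2 and 0.570 (0.472 to 0.685) in Peg3, each above the genome value of 0.401. That of Dlk1/Meg3 was 0.423 (0.360 to 0.495), which holds the genome value. These are values of distinct reads. With all deposited reads each of these domains lay below the genome value outside its regions, which was then 0.634.

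The 23 regions varied widely in both ChIP and input density. Their widths ran from 200 to 3750 bp with a median of 450 bp, against 500 bp over all regions of the genome. ChIP density ran from 36.7 to 462 reads per kb and input density from 5 to 125. ChIP over scaled input within the region had a median of 3.31 and ran from 1.21 to 12.5, and in 6 of the 23 its interval reached 1. A limit of 200 ChIP reads per kb, chosen after the values were seen, set apart 7 denser regions, 2 in each of Gnas, H19/Igf2 and Dlk1/Meg3 and 1 in Peg3. These held 3757 ChIP reads, 74.5% of those in all domains, with 51.4 to 89.1 input reads per kb. The other 16 held 525 ChIP reads inside the windows (10.4%) with 5 to 125 input reads per kb, so the input densities of both sets overlapped and their ChIP densities, split by the limit, did not.

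**Figure D3:**
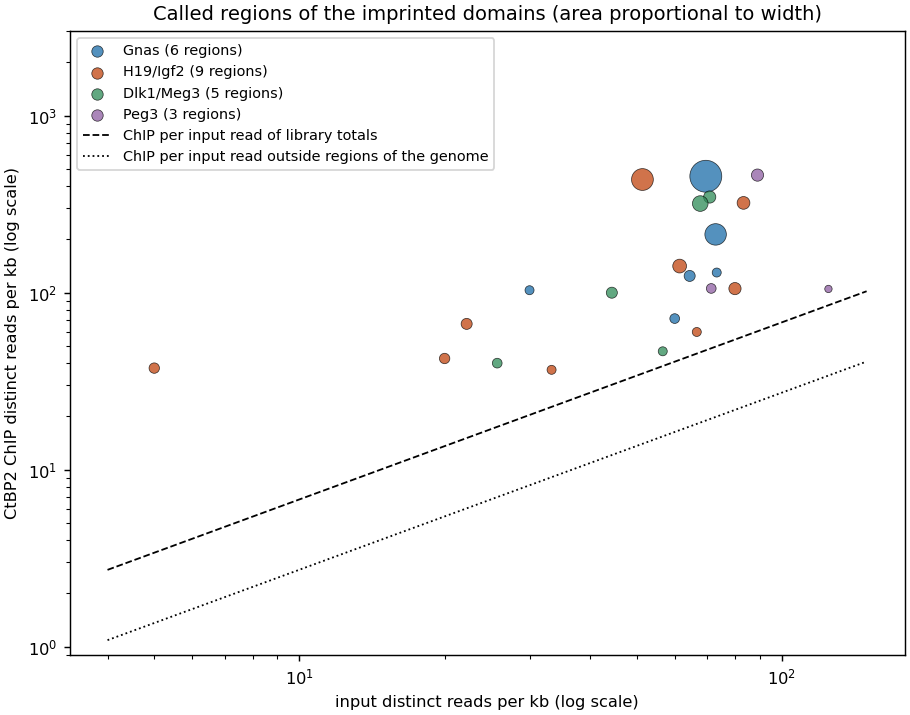
Input (horizontal) and CtBP2 ChIP (vertical) distinct reads per kb of the 23 called regions on log scales, coloured by domain, with the point area proportional to width. All 23 lie above the dashed line of the library totals, and the 7 denser regions reach 214 to 462 ChIP reads per kb at input densities shared with sparser ones.

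The widest Gnas region ran from 174153051 to 174156800 of chromosome 2, over 3750 bp. In the whole genome 2 regions were wider, and 4 were as wide or wider with this one included. It held 1706 ChIP reads (70.8% of the Gnas window) and 261 input reads (27.4%), or 455 and 69.6 per kb, a ratio of 9.62 (8.44 to 11.0). The expected count at its summit was 7.34 reads in 200 bp, where 241 ChIP reads stood beside 14 input reads.

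This region held separate summits and was not an even plateau. The first lay at 174153201 to 174153400 with 224 ChIP reads (196 to 255) and 17 input reads, and the next step held 126 and 13. At 174153601 to 174153800 counts dropped to 7 ChIP reads and 4 input reads. The next 7 steps held 20 to 96 ChIP reads, with the 96 at 174154401 to 174154600. A second summit at 174155601 to 174155800 had 225 ChIP reads (197 to 256) and 12 input reads, 2.4 kb from the first. It stood in a broad block, with 162 and 175 ChIP reads in the steps before it. The steps after it held 126, 131, 93 and 79 ChIP reads, and the last step 30 ChIP and 4 input reads. Over the 19 steps of the region, ChIP ran from 7 to 225 reads and input from 4 to 24. The summits are alike in distinct reads and differ when all deposited reads are counted, with 817 at the first and 643 at the second in ChIP against 21 and 15 in input. A step has 400 positions on both strands, and 56.0% and 56.25% of them were already taken at these summits, so distinct counts understate the reads there.

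**Figure D4:**
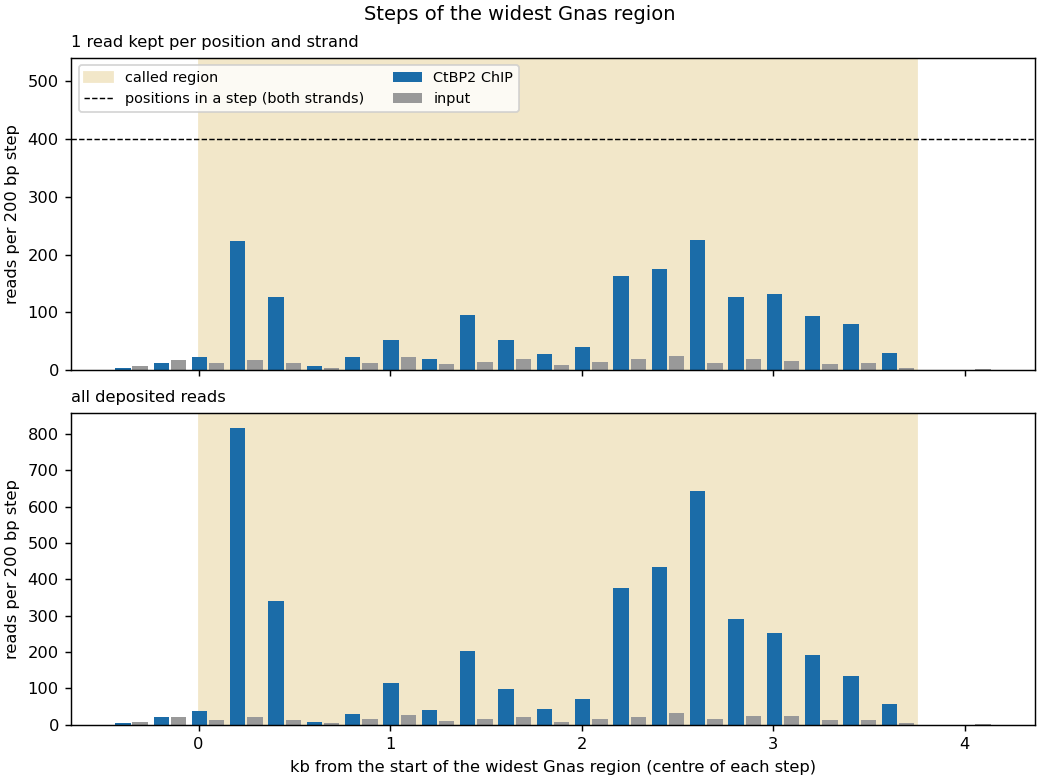
Reads per 200 bp step across the widest Gnas region for CtBP2 ChIP and input, against distance from the region start in kb, with distinct reads above and all deposited reads below. Summits of 224 and 225 distinct ChIP reads stand 2.4 kb apart with a step of 7 between them, below the dashed line of 400 positions, and become 817 and 643 with all reads.

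Other Gnas regions were weaker. A region at 174124601 to 174126300 (1700 bp) held 363 ChIP and 124 input reads, a ratio of 4.31 (3.50 to 5.33), with its 8 steps at 20 to 60 ChIP reads each. Regions at 174110151 to 174110450 and 174124001 to 174124300 held 39 ChIP and 22 input reads and 31 ChIP and 9 input reads. The region at 174159951 to 174160400 had 56 ChIP and 29 input reads, and that at 174120751 to 174121100 had 25 and 21, the only Gnas region whose ratio interval reached 1 (0.941 to 3.29). Between the 1700 bp region and the widest one, 26.75 kb held 44 ChIP and 150 input reads, a ratio of 0.432 (0.301 to 0.608). That interval holds the 0.401 of the genome outside regions. Outside regions, the step with most input reads was 174110601 to 174110800, with 14 ChIP and 26 input reads.

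In the H19/Igf2 window the reads stood at the high-coordinate end. The last 16.75 kb, from 149837251 to 149854000, held 7 of the 9 regions and 90.7% of the ChIP reads of the window. These were 1204 ChIP reads, beside 344 of the 598 input reads of the window, so input was gathered there too. The last of the 9 regions passed the window edge by 100 bp. The first 61.85 kb of the window had no region and held 59 ChIP and 188 input reads, a ratio of 0.462 (0.339 to 0.622). Igf2 and H19 could not be placed within the window without an annotation of mm9.

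The deepest region of this window ran from 149844051 to 149845800 (1750 bp) with 763 ChIP reads and 90 input reads, a ratio of 12.5 (10.0 to 15.7), the highest of the 23. Its summit step at 149845201 to 149845400 held 279 ChIP reads (247 to 314) and 14 input reads, the deepest step of all 5 windows. Of its positions 69.75% were taken, and all deposited reads numbered 910 in ChIP and 15 in input. Next to it, 149846401 to 149847000 held 193 ChIP and 50 input reads, a ratio of 5.68 (4.14 to 7.92). Small regions with few input reads also occurred. Outside regions the step with most input reads, 149847001 to 149847200, had 2 ChIP and 13 input reads. At 149832701 to 149833100 there were 15 ChIP and 2 input reads, a ratio of 11.0 with an interval from 2.57 to 99.5 that sets little limit on it.

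The Dlk1/Meg3 window had its ChIP reads at the low-coordinate end. The region at 110691201 to 110692100 (900 bp) held 287 ChIP and 61 input reads, a ratio of 6.92 (5.24 to 9.29), with steps of 23, 96, 100 and 62 ChIP reads. A narrower region at 110675851 to 110676400 (550 bp) held 191 ChIP and 39 input reads, a ratio of 7.21 (5.09 to 10.5), and the deepest step of the window, 152 ChIP and 29 input reads at 110676001 to 110676200. Their ratios overlap. A further region at 110697901 to 110698350 had 45 ChIP and 20 input reads. The remaining regions, at 110743601 to 110743950 and 110766501 to 110766800, held 14 ChIP reads each with 9 and 17 input reads, and their ratio intervals reached 1.

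From 110766801 to the end of the window, 63.2 kb held no region, with 85 ChIP reads and 284 input reads. The ratio of 0.440 (0.341 to 0.563) holds that of the genome outside regions, and no step of it exceeded 6 ChIP reads. The step at 110780201 to 110780400 in this stretch had 10 input reads and 0 ChIP reads. Where Meg3 starts within the window was not established here.

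In the Peg3 window 1 narrow site held most of the reads. The region at 6682751 to 6683300 (550 bp) had 254 ChIP reads, 53.7% of the window, and 49 input reads, a ratio of 7.63 (5.60 to 10.6). At 462 ChIP reads per kb it was the densest of the 23, slightly above the widest Gnas region at 455. Its steps held 91 and 157 ChIP reads beside 25 and 16 input reads, and the steps on each side held 6 and 2 ChIP reads. A weaker region at 6682051 to 6682400 had 37 ChIP and 25 input reads, and between them a step of 1 ChIP read had 13 input reads. The region at 6649051 to 6649250 had 21 ChIP and 25 input reads, a ratio of 1.24 (0.658 to 2.30). The overlapping step 6649201 to 6649400, whose centre lay outside it, held 13 ChIP and 25 input reads. From there to the next region 32.8 kb without a region held 86 ChIP and 144 input reads, a ratio of 0.879 (0.665 to 1.16), above the 0.401 of the genome outside regions. After the densest region 26.7 kb held 41 ChIP and 160 input reads, a ratio of 0.377 (0.261 to 0.534).

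In the Snrpn window no region was called. The step with most ChIP reads, 67149201 to 67149400, was also that with most input reads, 7 ChIP (2.81 to 14.4) and 19 input (11.4 to 29.7), a ratio of 0.542 (0.193 to 1.35). The step before it held 0 ChIP and 12 input reads. ChIP reads were absent from 86.0% of the steps of the window and input reads from 52.75%. A place of raised input was thus present in Snrpn as in the other domains, with ChIP reads at or below the ratio of the library totals.

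Raised input occurred both with and without ChIP reads. Of the 69 steps in the 5 windows with at least 10 input reads, 49 lay in a called region (71.0%), against a background of 66.1% of such steps in the genome, a share near that background. By domain these were 27 of 36 in Gnas, 12 of 14 in H19/Igf2, 6 of 10 in Dlk1/Meg3, 4 of 7 in Peg3 and 0 of 2 in Snrpn. No ChIP read was found in 7 of the 69 (10.1%), against 9.81% in the genome. Those with most input were 174122801 to 174123000 in Gnas with 0 ChIP and 19 input reads, and 110679801 to 110680000 in Dlk1/Meg3 with 0 ChIP reads (0 to 3.69) and 16 input reads.

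The strands of the 5 prime ends are given as a description of the sites. Both the call and the choice of the deepest steps moved the ends by 110 bp towards fragment centres, which favours forward ends before and reverse ends after a centre. Over the 23 regions the median of reverse ends lay a median of 223.5 bp downstream of that of forward ends in ChIP and 190.5 bp in input, near the fragment lengths of 220 and 205 bp found genome-wide. Single regions spread widely around these medians, from 99.5 to 306 bp in ChIP and from -191.5 to 294.5 bp in input. Within 600 bp of the centre of the deepest Dlk1/Meg3 step, 94 forward ChIP ends lay before and 5 after the centre, and 0 reverse ends before and 93 after. In input the same counts were 15, 8, 0 and 20. At Peg3 they were 130, 2, 32 and 98 in ChIP and 22, 5, 19 and 21 in input. At Dlk1/Meg3 forward ChIP ends thus lay before the centre and reverse ends after it, while reverse input ends were missing before the centre too. At the deepest Gnas step the ChIP counts were 284, 175, 178 and 248, with both strands on both sides.

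**Figure D5:**
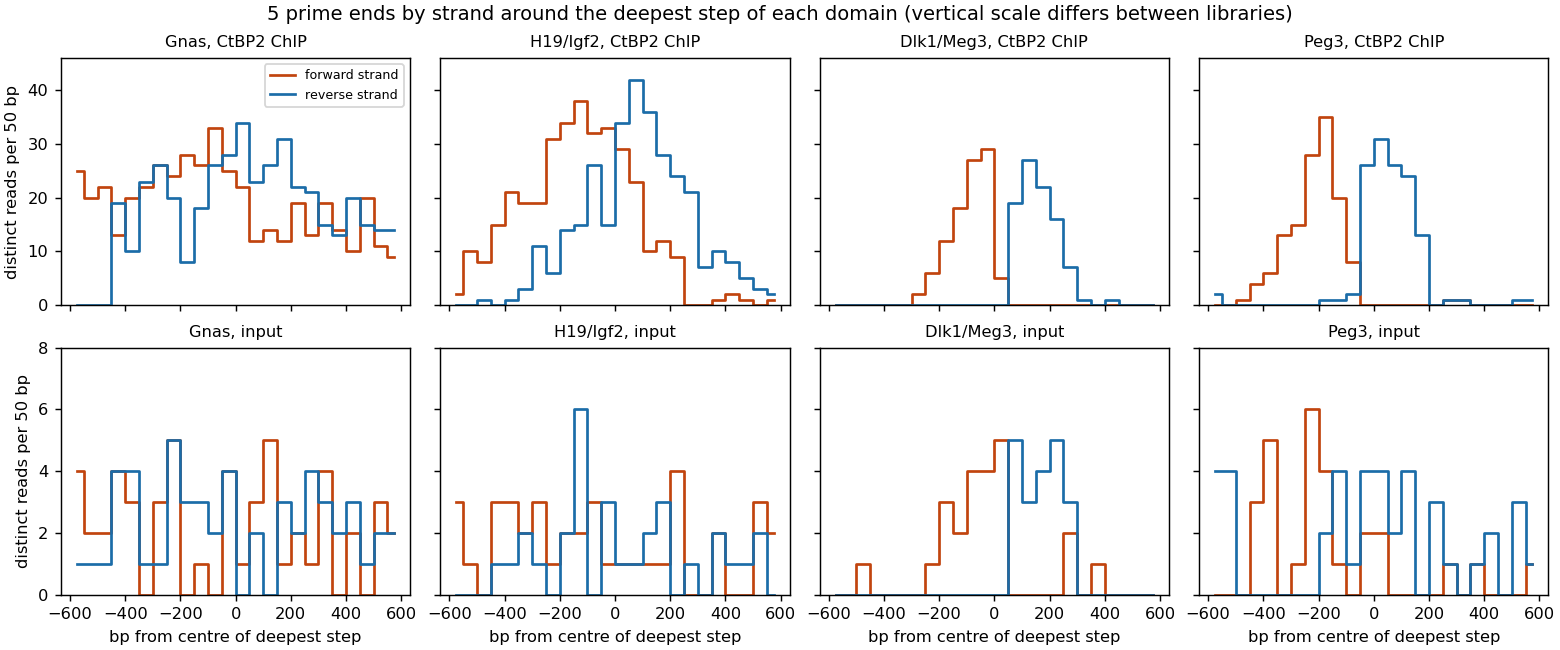
Distinct 5 prime ends per 50 bp on the forward and reverse strands, against distance in bp from the centre of the deepest step, for CtBP2 ChIP above and input below on scales that differ. In ChIP, forward and reverse ends are separate at Dlk1/Meg3 and largely so at Peg3, and overlap at Gnas and H19/Igf2. In input, 0 reverse ends lie before and 20 after the centre at Dlk1/Meg3, and 19 before and 21 after it at Peg3.

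All deposited reads per distinct read were 4.12 in ChIP and 1.67 in input over the whole libraries, above the values of every domain. They were 2.29 in ChIP and 1.15 in input over the Gnas window, 2.34 and 1.13 over H19/Igf2, and 1.71 and 1.10 over Snrpn. In the 7 denser regions the values were 1.93 to 2.70 in ChIP and 1.09 to 1.22 in input, and in the 16 sparser ones 1.55 to 2.14 and 1 to 1.4. Counting all deposited reads lowered every domain ratio and left Dlk1/Meg3 at 1.02 and Peg3 at 1.08, with intervals that reached 1. With all reads the genome outside regions lay at 0.634 of the library totals, and Snrpn at 0.213 (0.175 to 0.259) lay below it, whereas with distinct reads its interval held the genome value. With all reads the other domains also lay below 0.634 outside their regions, so this was not particular to Snrpn.

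The region calls depended on the limit set for raised input. Without the windows where input reached 10 times its genome mean (called steps in the genome 0.594%), 19 regions were called, with 0 in Peg3 and a widest Gnas region of 600 bp. With the limit at 20 times the mean, a setting added after the values were seen, there were 22 regions, with 2 in Peg3 and a widest Gnas region of 3750 bp. The genome held 20437 regions with the limit at 10 times and 30113 with that at 20 times. The Snrpn window had 0 regions in each of the settings run except that with the expected count from input over 10 kb only, which gave 1 of 200 bp.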

How the data were processed

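Aligned reads of 1 CtBP2 ChIP and 1 input library of MIN6 cells were used. The authors' deposited files hold 1 line per read with chromosome, start, end and strand on mm9, not normalized and with repeated reads kept. Their name column holds 1 throughout, so adding up deposited lines gives raw read counts. The submitters' processing notes name BWA, SAMtools 0.1.19 and bedtools 2.17.0. Mapping filters are not given in the sources used here.

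Distinct 5 prime ends were moved by 110 bp, from a strand cross-correlation peak at 220 bp in ChIP, and counted in 200 bp steps on 21 chromosomes. Regions were called over the whole genome in windows of 200 bp every 50 bp against whichever was larger, the genome mean or scaled input over 1, 5 and 10 kb, joined within 200 bp, without a high-input exclusion, using Python 3.11.15, NumPy 2.4.6 and SciPy 1.17.1. The call was run on simulated data with an even background, where it found the strong planted sites. It missed the weakest and part of those next in strength. The simulated input had no places of raised input, so the run says nothing of calls at such places. Poisson and Clopper-Pearson-based intervals cover counting error. Figures used matplotlib 3.10.9.

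The members, windows and settings were chosen with earlier results of these data known. Named regions are, in each domain, those with most reads, width or fold, and the step with most input outside regions; further regions were named after their values were seen.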

Additional observations from a re-analysis of the deposited data

How the results depend on the processing

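No paired analysis was possible because there was a single ChIP and a single input library. The count of 23 regions, of 29388 in the genome, lay between 16 and 27 in the other settings, except 14 with windows of 500 bp. The genome held 24394 regions where the domains held 16 (5 prime ends not moved) and 30730 where they held 27 (joined only on touching). With windows of 500 bp it held 23821. Over the settings the genome count ran from 20437 to 34000, so the domain counts are to be read beside it. The widest Gnas region, 3750 bp, was 1750 bp with all deposited reads, 1800 bp when windows were joined only on touching, 600 bp without windows of input at 10 times the genome mean or more (3750 bp with that limit at 20 times), 4000 bp with 5 prime ends not moved, 4050 bp with input scaled by reads outside regions and 4300 bp with windows of 500 bp. ChIP over scaled input of all domains, 2.27, was 1.84 with all deposited reads and 5.66 with input scaled by reads outside regions. With all deposited reads it was 3.001 in Gnas, 2.74 in H19/Igf2, 1.02 in Dlk1/Meg3, 0.213 in Snrpn and 1.08 in Peg3. With the scaling outside regions it was 9.30, 8.15, 3.25, 0.841 and 3.37 in the same order. Counting only reads outside regions leaves out the places called for high ChIP. The ratio was then 0.490 in all domains, 0.575 in Gnas, 0.576 in H19/Igf2, 0.423 in Dlk1/Meg3 and 0.570 in Peg3. The deepest steps held 817 reads in Gnas, 910 in H19/Igf2, 398 in Dlk1/Meg3 and 401 in Peg3 with all deposited reads. With ends not moved they held 234 in H19/Igf2, 98 in Dlk1/Meg3 and 100 in Peg3, and with steps moved by 100 bp 240 in H19/Igf2 and 188 in Peg3. Corrected for positions hit more than once, a setting added after the values were seen, they came to 330.7 in Gnas, 478 in H19/Igf2, 191 in Dlk1/Meg3 and 199.4 in Peg3. Apart from the changes built into a setting, causes were not tested.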

Other observations

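Some of the stretches beside the windows also held called regions, in a genome with 29388 regions over 2560 Mb. Nothing is read from these counts. The 100 kb after the Gnas window had 675 ChIP and 667 input reads and 4 further regions, and the 100 kb before it 81 and 265 reads and 0 regions. Before the H19/Igf2 window, 104 kb held 502 ChIP and 426 input reads with 5 regions, and after it 253 and 441 with 3. The Peg3 window had 0 regions in the 80 kb on each side. Before the Dlk1/Meg3 window 160 kb held 335 ChIP and 857 input reads with 1 region, and after it 330 and 528 with 3. Before the Snrpn window 80 kb held 256 ChIP and 591 input reads with 2 regions, and after it 57 and 362 with 0.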
